A study of Mus musculus with 15 samples.

Results

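Interferon-stimulated genes and the interferon-inducible GTPases were followed in a mouse glioma treated with an antibody against VEGF-A, and in healthy brain. The set held 43 genes, taken from a list of gene names that was drawn up with earlier results of these data known. They were taken from 24717 genes that had a value in at least 1 library, out of 55450 annotated genes. By role they fell into 4 regulators of transcription, 5 nucleic acid sensors, 7 type I effectors of the Ifit and Oas families with Isg15, 11 other effectors, 7 enzymes of ubiquitin, ISG15 and ADP-ribose, and 9 GTPases. All 43 reached a mean of 1 FPKM (fragments per kilobase of transcript scaled to the mapped fragments, a level corrected for length and depth) over the libraries of each fit, although 19 of them did so against brain only through the tumor libraries.

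Interferons are secreted proteins that warn cells of infection or damage. Type I interferons act through a complex with STAT2 and IRF9 that binds interferon-stimulated response elements, whereas interferon gamma, made by T cells and natural killer cells, acts through gamma-activated sites and through the transcription factor IRF1. The Ifit, Oas and Isg15 genes are the usual readout of the type I pathway, and the guanylate-binding proteins (Gbp) and immunity-related GTPases (Irgm, Igtp, Iigp1, Ifi47) that of interferon gamma, although most of these genes answer to both. In the brain, microglia, macrophages and astrocytes can all switch them on.

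Each library was made from total RNA of 1 sample, with 3 libraries in each of 5 groups, all from C57BL/6 mice. GL261, a mouse glioma line of the same strain, was implanted, and 3 groups received an antibody that blocks VEGF-A, B20.4.1.1, in doses of 50, 100 or 200 µg, begun on day 10 after implantation and repeated every 3 days until the endpoint. The remaining groups were untreated GL261 tumors, which the protocol lists at 0 µg, and healthy brain with no tumor. All tumors came from 1 cell line, tissue was collected after perfusion, and nothing in the labels says how many animals stood behind a sample. Each p-value rests on the spread among the samples as labelled.

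Depth, as estimated from the deposited confidence limits, was 18.5 to 34.1 M fragments in tumor libraries and 16.04 to 56.8 M in healthy brain. By group it was 18.5 to 19.5 M in untreated tumors, 19.03 to 22.1 M at 50 µg, 23.3 to 24.3 M at 100 µg and 24.8 to 34.1 M at 200 µg. Every library at 100 and 200 µg was deeper than every untreated and 50 µg library, so depth and high dose cannot be told apart. The neuron markers summed to 8.71 to 40.1 FPKM in tumors, against 529 to 741 FPKM in brain, and the dividing-cell markers to 62.6 to 162 FPKM in tumors, against 0 to 0.824 in brain, so the libraries matched their labelled tissue. Some tumor libraries stood apart. Replicate 3 of each of the 4 tumor groups carries an agent tag that differs from its title, or lacks one. Replicate 3 at 100 µg lay with the 200 µg libraries on the first principal component, and replicate 3 at 50 µg lay alone on the second. In 4 libraries, replicate 3 at 100 µg and all 3 at 200 µg, 2.62 to 3.16% of tested genes were assembled in separate pieces, against 5.77 to 8.45% in the other 8 tumor libraries. Titles set the groups used here, and calls and directions that change by agent tag, or without these libraries, are given where they arise.

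The start regions of the genes were read from a table of RefSeq promoters on GRCm38.p6, each window running from 250 bases before to 50 bases after the annotated start. It had entries for 36 of the 43 genes. The response element was searched as GAAANNGAA and the gamma-activated site as TTCNNNGAA, on both strands and with overlapping matches counted. The response element letters stood in 22 of the 36 genes (61.1%), against 9.76% of 27025 genes in the table, and the gamma-activated site letters in 13 (36.1%), against 9.55%. Of the type I genes, 4 of 7 held the first motif and 2 of 7 the second. Of the GTPases, 7 of 8 held the first and 4 of 8 the second. A match is a description of the letters and does not show binding.

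Windows that carry these letters are shown for a type I gene with a run of overlapping elements (Isg15), a second from the Ifit cluster (Ifit1), a guanylate-binding protein (Gbp2), a pair of neighboring immunity-related GTPases (Igtp and Irgm2) and a regulator with only the gamma-activated site (Irf1). All are written 5′ to 3′ along the gene, with the letters of either motif in capitals and overlapping matches run together. Their positions are chr4:156200769-156201068, minus strand (Isg15), chr19:34640639-34640938, plus strand (Ifit1), chr3:142620413-142620712, plus strand (Gbp2), chr11:58199306-58199605, plus strand (Igtp), chr11:58214727-58215026, plus strand (Irgm2) and chr11:53769764-53770063, plus strand (Irf1).
Isg15: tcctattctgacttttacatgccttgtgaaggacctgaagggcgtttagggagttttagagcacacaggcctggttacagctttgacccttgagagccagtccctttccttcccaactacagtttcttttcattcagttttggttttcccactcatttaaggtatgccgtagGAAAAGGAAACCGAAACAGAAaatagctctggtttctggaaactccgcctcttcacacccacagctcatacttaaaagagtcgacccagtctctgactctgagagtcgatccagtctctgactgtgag
Ifit1: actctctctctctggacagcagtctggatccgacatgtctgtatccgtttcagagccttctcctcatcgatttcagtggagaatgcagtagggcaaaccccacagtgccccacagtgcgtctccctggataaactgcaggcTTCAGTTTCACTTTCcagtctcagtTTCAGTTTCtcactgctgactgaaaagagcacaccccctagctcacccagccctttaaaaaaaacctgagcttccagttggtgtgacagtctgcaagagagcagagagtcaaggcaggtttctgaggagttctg
Gbp2: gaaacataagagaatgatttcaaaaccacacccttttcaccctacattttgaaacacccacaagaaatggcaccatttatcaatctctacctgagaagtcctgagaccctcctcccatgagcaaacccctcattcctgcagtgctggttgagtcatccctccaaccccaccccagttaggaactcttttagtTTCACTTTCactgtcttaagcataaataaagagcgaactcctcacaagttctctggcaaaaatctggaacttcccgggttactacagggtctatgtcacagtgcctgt
Igtp: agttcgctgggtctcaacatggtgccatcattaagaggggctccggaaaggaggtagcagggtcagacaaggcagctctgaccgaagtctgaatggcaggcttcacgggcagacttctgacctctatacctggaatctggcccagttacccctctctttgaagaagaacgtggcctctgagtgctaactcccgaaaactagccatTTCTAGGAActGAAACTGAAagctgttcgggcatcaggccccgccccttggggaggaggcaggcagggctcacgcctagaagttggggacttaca
Irgm2: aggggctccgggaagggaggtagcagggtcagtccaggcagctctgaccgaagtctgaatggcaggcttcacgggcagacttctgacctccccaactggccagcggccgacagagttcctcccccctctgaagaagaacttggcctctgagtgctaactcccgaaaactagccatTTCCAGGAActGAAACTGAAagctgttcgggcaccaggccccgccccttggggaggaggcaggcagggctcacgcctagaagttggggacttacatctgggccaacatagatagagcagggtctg
Irf1: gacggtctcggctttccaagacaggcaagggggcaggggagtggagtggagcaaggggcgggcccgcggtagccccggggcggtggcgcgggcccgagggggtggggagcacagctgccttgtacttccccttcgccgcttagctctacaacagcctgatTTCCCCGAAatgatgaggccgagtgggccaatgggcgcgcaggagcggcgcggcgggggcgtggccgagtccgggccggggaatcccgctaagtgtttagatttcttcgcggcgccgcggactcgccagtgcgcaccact
In the Isg15 window 3 overlapping response elements began 78, 72 and 66 bases upstream of the start. Ifit1 had 3 as well, at 109, 103 and 84 bases upstream, and Gbp2 had 1 at 58 bases. Igtp and Irgm2 shared an unbroken run of 61 identical letters. In both a gamma-activated site stood shortly before a response element, at 45 and 34 bases upstream in Igtp and at 75 and 64 in Irgm2. Irf1 had its gamma-activated site 90 bases upstream and no response element.

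Against healthy brain, nearly the whole set was higher in untreated tumor. By limma on log2(FPKM + 1), with Benjamini-Hochberg adjustment over 16089 genes, 42 of 43 genes were called higher at an adjusted p under 0.05 and 0 lower. Of all genes tested, 32.8% were called higher and 28.4% lower. The median log2 difference was 4.02 over the 43 genes and 0.12 over all genes, a value that median-of-ratios scaling moved to -0.07. Since 19 genes had a brain mean under 1 FPKM and passed the filter through the tumor libraries alone, the other 24 were also counted apart, and 23 of them were called higher with a median of 4.12. The gene that did not pass was Adar. Fold changes on this scale understate the change of genes near 0. In tissue of mixed cells, more cells that use a gene and more RNA per cell cannot be told apart.

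**Figure D1:**
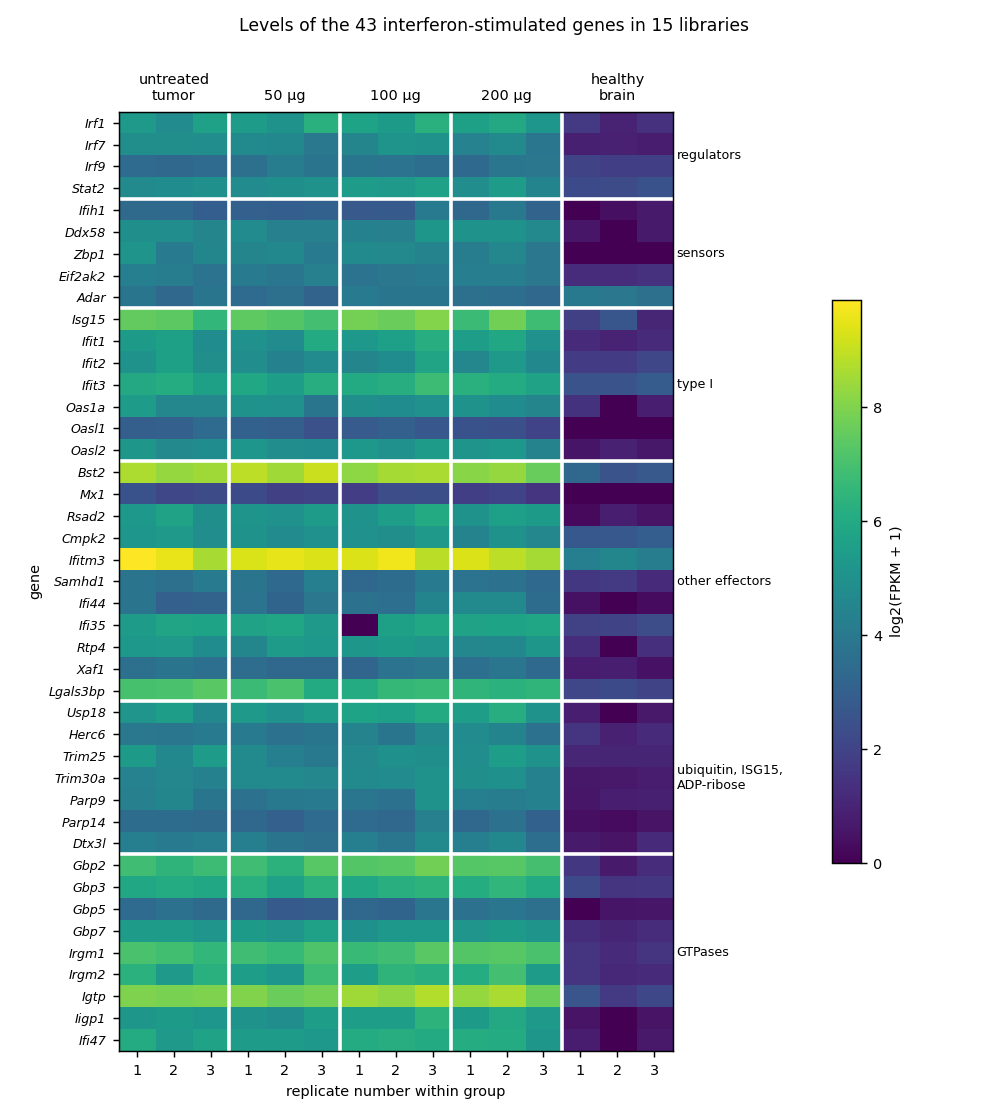
Level of each of the 43 genes as log2(FPKM + 1) in each of the 15 libraries, with genes grouped by role and libraries by group in the order untreated tumor, 50, 100 and 200 µg, healthy brain. The 12 tumor columns are brighter than the 3 brain columns in all rows but Adar, apart from Ifi35 in replicate 1 at 100 µg, where it is listed at 0.

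The 12 tumor libraries lay above all 3 brain libraries for 41 of the 43 genes, against 27.3% of 15699 genes with a mean of 1 FPKM over all libraries. The exceptions were Adar and Ifi35, which was listed at 0 in replicate 1 at 100 µg and whose transcripts were joined to a neighboring gene in 13 libraries. An exact 0 in these files can be a transcript that failed to assemble. The sum over the set was 2396 to 3246 FPKM in untreated tumors, against 94.4 to 106.5 FPKM in brain. Ifitm3 stood first in untreated tumor at a mean of 697 FPKM, followed by Bst2 at 358 and Igtp at 247. The libraries of Ifitm3 and Bst2 overlapped, and those of Bst2 all lay above those of Igtp.

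Among the regulators, Irf7, which amplifies type I interferon transcription, had 28.8, 28.4 and 27.8 FPKM in untreated tumors, against 0.807, 0.896 and 0.715 FPKM in healthy brain, a log2 difference of 4.02 ± 0.131 (SE), adjusted p = 9.35e-06. Its 3 tumor libraries were nearly equal and far above every brain library. Irf1, the transcription factor downstream of interferon gamma, had 39.6, 26.6 and 49.8 FPKM in untreated tumors, against 2.17, 0.97 and 1.65 FPKM in healthy brain (3.92 ± 0.29 (SE), adjusted p = 7.22e-05). Stat2 and Irf9, both part of the type I complex, were present in brain and differed less. Stat2 had 25.7, 26.96 and 30.5 FPKM in untreated tumors, against 3.605, 3.75 and 4.63 FPKM in healthy brain (2.53 ± 0.156 (SE), adjusted p = 3.91e-05). Irf9 had 10.1, 9.09 and 10.1 FPKM in untreated tumors, against 3.04, 2.604 and 2.54 FPKM in healthy brain (1.53 ± 0.14 (SE), adjusted p = 0.000171), the smallest of the 42 called differences, and in 3 libraries its transcripts were joined to a neighboring gene. All 4 regulators were called higher and none overlapped between the groups, a separation that 37.2% of all tested genes also showed in this direction and 31.7% in the other.

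Of the nucleic acid sensors, 4 of 5 were called higher. Ddx58, the RNA helicase RIG-I, had 29.1, 27.97 and 21.6 FPKM in untreated tumors, against 0.524, 0 and 0.655 FPKM in healthy brain (4.31 ± 0.244 (SE), adjusted p = 2.91e-05). Zbp1, which binds left-handed nucleic acid and can start cell death, had 34.1, 15.3 and 22.5 FPKM in untreated tumors and was listed at 0 in all 3 brain libraries. Eif2ak2, the kinase PKR that halts translation when it meets double-stranded RNA, had 18.04, 16.7 and 12.5 FPKM in untreated tumors, against 1.403, 1.39 and 1.64 FPKM in healthy brain (2.75 ± 0.179 (SE), adjusted p = 4.53e-05). Eif2ak2 was joined to a neighbor in 13 libraries, so its level may hold reads of that neighbor. Ifih1, the helicase MDA5, was called too (2.87 ± 0.244 (SE), adjusted p = 0.000127), but not when a plain sum of FPKM replaced the length-weighted one.

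Adar, which edits adenosine to inosine in double-stranded RNA, had 13.4, 8.96 and 13.2 FPKM in untreated tumors, against 14.9, 14.3 and 11.6 FPKM in healthy brain, a log2 difference of -0.20 ± 0.206 (SE), adjusted p = 0.432, with a 95% interval of -0.70 to 0.30. The groups overlapped. Adar exons share 16.8% of their length with Chrnb2, and strand was not used, so part of its value can come from that gene. The gene has a long form, p150, made from a start that interferon switches on, and a short form, p110, made from a constitutive start further upstream. The 2 starts were separated after the values of the whole gene had been seen, by taking only transcripts spliced from each first exon into the common second exon. Transcripts from the inducible exon at chr3:89730748-89730838, which holds the p150 start codon, had 8.42, 3.67 and 5.24 FPKM in untreated tumors and were listed at 0 in all 3 brain libraries. Transcripts from the upstream first exons had 7.65, 12.2 and 13.1 FPKM in untreated tumors, against 11.1, 9.82 and 13.8 FPKM in brain. Transcripts from either first exon summed to 16.1, 15.8 and 18.4 FPKM in untreated tumors, against 11.1, 9.82 and 13.85 FPKM in brain, without overlap. This is a plain sum of FPKM, unlike the value of the whole gene, and was not tested. The upstream transcripts thus overlapped between the groups, and those from the inducible exon were assembled in the 3 tumor libraries and in none of the 3 brain libraries. With treatment they had 9.55 and 5.61 FPKM in replicates 1 and 2 at 50 µg, 8.45 and 18.4 in replicates 2 and 3 at 100 µg and 10.9, 5.66 and 3.13 at 200 µg. They were listed at 0 in replicate 3 at 50 µg, where the second exon was assembled with neither first exon at 7.97 FPKM, and in replicate 1 at 100 µg.

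The window at the inducible start, chr3:89730468-89730767, plus strand, carries 2 response elements, 249 bases upstream and 33 bases downstream of the start, and a gamma-activated site 22 bases downstream. The window of the annotated constitutive start, chr3:89714772-89715071, plus strand, carries neither. They are shown, with motif letters in capitals, because transcripts from the inducible exon were assembled in tumor and not in brain, while those from the upstream exons, counted as 1 class, were assembled in both.
Adar inducible: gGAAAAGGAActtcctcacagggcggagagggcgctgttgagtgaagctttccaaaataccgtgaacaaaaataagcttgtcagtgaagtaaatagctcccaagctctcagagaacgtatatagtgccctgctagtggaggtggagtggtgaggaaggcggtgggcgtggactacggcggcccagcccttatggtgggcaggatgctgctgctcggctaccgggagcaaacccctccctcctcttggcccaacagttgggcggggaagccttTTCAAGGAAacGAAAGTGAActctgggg
Adar constitutive: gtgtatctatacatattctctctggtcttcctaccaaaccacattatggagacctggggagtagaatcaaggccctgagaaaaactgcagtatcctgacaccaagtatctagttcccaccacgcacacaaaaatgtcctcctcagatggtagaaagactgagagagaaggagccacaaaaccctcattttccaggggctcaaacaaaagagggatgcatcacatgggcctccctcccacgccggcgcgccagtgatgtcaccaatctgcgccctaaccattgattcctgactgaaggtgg

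**Figure D2:**
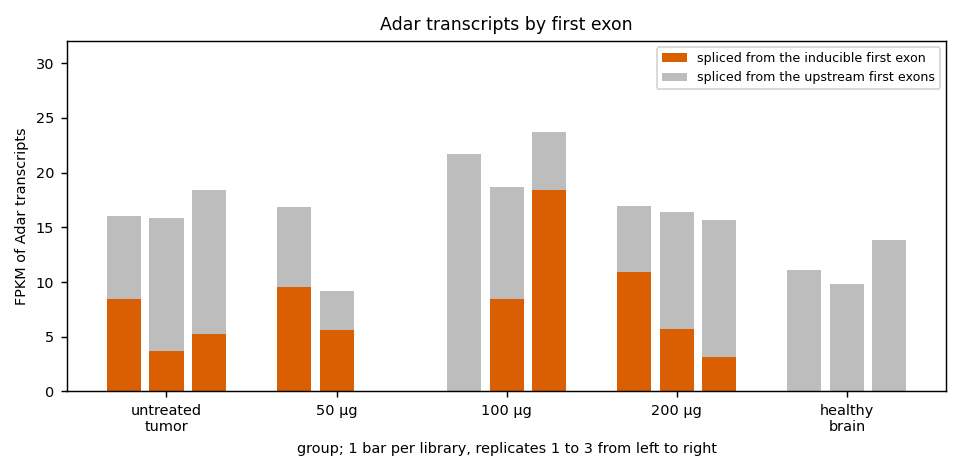
FPKM of Adar transcripts spliced from the inducible first exon (orange) and from the upstream first exons (gray), stacked, 1 bar per library. Orange is present in 10 of the 12 tumor libraries at 3.13 to 18.4 FPKM and absent from the 3 brain libraries. The empty place is replicate 3 at 50 µg, where neither first exon was assembled.

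All 7 type I effectors were called higher in untreated tumor. Isg15, the ubiquitin-like protein that is attached to others during an interferon response, had 184, 168 and 93.3 FPKM in untreated tumors, against 2.64, 5.24 and 1.09 FPKM in healthy brain (5.31 ± 0.458 (SE), adjusted p = 0.000135). Every tumor library lay far above every brain library, and a near-identical copy elsewhere in the genome (95.2% identity) may take or give reads. The Ifit proteins bind foreign RNA and sit side by side on chromosome 19 between positions 34550694 and 34650009 of mm10. Ifit1 had 41.3, 48.9 and 27.2 FPKM in untreated tumors, against 1.301, 0.956 and 1.34 FPKM in healthy brain (4.15 ± 0.243 (SE), adjusted p = 3.27e-05). Ifit2 had 33.2, 47.9 and 28.3 FPKM in untreated tumors, against 2.35, 2.38 and 3.25 FPKM in healthy brain (3.33 ± 0.234 (SE), adjusted p = 5.96e-05). Ifit3, nearly identical to Ifit3b (97.8%), had 60.96, 69.6 and 48.9 FPKM in untreated tumors, against 4.77, 4.75 and 6.43 FPKM in healthy brain (3.26 ± 0.198 (SE), adjusted p = 3.68e-05). Ifit3 had the highest brain mean of the type I genes, and the differences of Ifit2 and Ifit3 were smaller than that of Ifit1.

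The Oas genes make or resemble the synthetases that switch on RNase L. Oas1a, close in sequence to Oas1g (97.6%), had 43.1, 22.6 and 23.1 FPKM in untreated tumors, against 1.74, 0 and 0.762 FPKM in healthy brain (4.12 ± 0.432 (SE), adjusted p = 0.000305). Oasl2 had 36.2, 24.4 and 27.1 FPKM in untreated tumors, against 0.47, 0.888 and 0.553 FPKM in healthy brain (4.20 ± 0.203 (SE), adjusted p = 1.87e-05). Oasl1, an inactive relative that in mice restrains translation of Irf7, had 7.08, 7.18 and 10.1 FPKM in untreated tumors and was listed at 0 in all 3 brain libraries, so no fold is given. It was the lowest of the 7 in tumor. None of the 7 overlapped between tumor and brain, where 37.2% of all tested genes lay wholly above and 31.7% wholly below.

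All 9 GTPases were called higher as well. Guanylate-binding proteins gather on the membranes of intracellular pathogens, and the 4 of the set lie in 1 cluster on chromosome 3 between positions 142493978 and 142638008. Gbp2 had 115, 84.5 and 108 FPKM in untreated tumors, against 2.05, 0.637 and 1.39 FPKM in healthy brain (5.49 ± 0.267 (SE), adjusted p = 1.9e-05). Gbp3 had 60.3, 67.8 and 60.6 FPKM in untreated tumors, against 3.59, 1.83 and 1.96 FPKM in healthy brain (4.24 ± 0.223 (SE), adjusted p = 2.37e-05). Gbp7 had 43.4, 42.4 and 34.98 FPKM in untreated tumors, against 1.48, 1.04 and 1.38 FPKM in healthy brain (4.16 ± 0.163 (SE), adjusted p = 1.18e-05), with tumor libraries that varied little. Gbp5, which promotes inflammasome assembly, was the lowest GTPase, with 10.04, 11.8 and 9.77 FPKM in untreated tumors, against 0, 0.472 and 0.53 FPKM in healthy brain (3.13 ± 0.211 (SE), adjusted p = 5.15e-05).

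The immunity-related GTPases act on pathogen vacuoles and, in the case of Irgm1, Irgm2 and Igtp, hold the other family members inactive on the cell's own membranes. Igtp had 253, 236 and 251 FPKM in untreated tumors, against 5.08, 2.21 and 3.41 FPKM in healthy brain (5.81 ± 0.249 (SE), adjusted p = 1.4e-05), the largest difference of the 43 genes. Irgm1 had 133, 119 and 93.8 FPKM in untreated tumors, against 1.92, 1.32 and 1.89 FPKM in healthy brain (5.42 ± 0.193 (SE), adjusted p = 9.52e-06). Irgm2, of which an annotated form overlaps 8.01% of the exons of Igtp, had 77.9, 38.6 and 76.2 FPKM in untreated tumors, against 1.86, 1.22 and 1.27 FPKM in healthy brain (4.68 ± 0.306 (SE), adjusted p = 4.59e-05). The tumor libraries of Igtp were close together, whereas replicate 2 of Irgm2 lay well below the other 2. Iigp1, an effector that breaks vacuoles, had 36.5, 40.5 and 35.2 FPKM in untreated tumors, against 0.437, 0 and 0.446 FPKM in healthy brain (4.91 ± 0.195 (SE), adjusted p = 1.22e-05). Ifi47 had 67, 40.05 and 51.2 FPKM in untreated tumors, against 0.703, 0 and 0.598 FPKM in healthy brain (5.24 ± 0.287 (SE), adjusted p = 2.62e-05). None of the 9 GTPases overlapped between tumor and brain, all lying above, as did 37.2% of all tested genes, with 31.7% below.

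**Figure D3:**
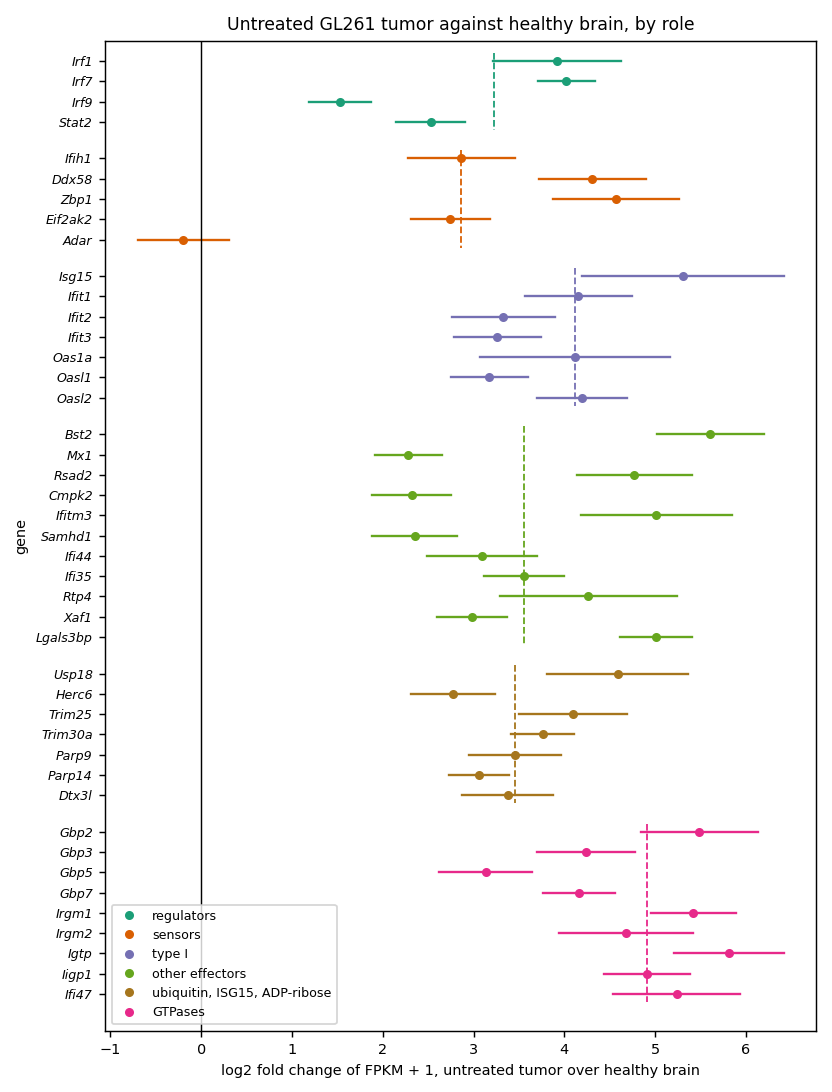
Log2 fold change of untreated tumor over healthy brain for each gene (points) with its 95% interval (bars), from limma on 3 libraries per group, with the median of each role dashed. All intervals but that of Adar lie above 0, and the medians run from 2.87 for sensors to 4.91 for GTPases.

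The other effectors were all called higher, 11 of 11, with a median log2 difference of 3.56 (3.91 over the 10 without Mx1, which was listed at 0 in brain). Ifitm3, which blocks fusion of viruses with the cell membrane, had 948, 752 and 391 FPKM in untreated tumors, against 18.4, 22.4 and 17.4 FPKM in healthy brain (5.01 ± 0.342 (SE), adjusted p = 5.38e-05). Bst2, or tetherin, which holds budding virus on the cell, had 407, 317 and 352 FPKM in untreated tumors, against 9.01, 4.78 and 5.801 FPKM in healthy brain (5.61 ± 0.242 (SE), adjusted p = 1.4e-05). Lgals3bp, a secreted glycoprotein that binds galectins, had 127, 132 and 163 FPKM in untreated tumors, against 3.36, 3.71 and 3.07 FPKM in healthy brain (5.01 ± 0.162 (SE), adjusted p = 9.35e-06). These 3 were the most abundant of the role and had its largest differences. The remaining 7 with a brain value ran from 2.32 for Cmpk2 to 4.77 for Rsad2. Mx1, an antiviral GTPase that is inactive in most laboratory strains, had 4.55, 3.32 and 3.77 FPKM in untreated tumors.

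Of the enzymes of ubiquitin, ISG15 and ADP-ribose, 7 of 7 were called higher, with a median of 3.46. Usp18, which removes ISG15 and damps the type I receptor, had 34.97, 44.5 and 23.4 FPKM in untreated tumors, against 0.793, 0 and 0.605 FPKM in healthy brain (4.59 ± 0.321 (SE), adjusted p = 5.86e-05). Trim25, a ubiquitin ligase that acts on RIG-I, had 40.4, 23.5 and 42.2 FPKM in untreated tumors, against 1.08, 1.04 and 1.06 FPKM in healthy brain (4.10 ± 0.246 (SE), adjusted p = 3.56e-05). Trim30a had 20.1, 23.2 and 19.5 FPKM in untreated tumors, against 0.555, 0.587 and 0.693 FPKM in healthy brain (3.76 ± 0.142 (SE), adjusted p = 1.12e-05). Herc6, the ISG15 ligase of the mouse, and the ADP-ribose enzymes Parp9, Parp14 and Dtx3l differed by 2.77 to 3.46. Parp9 and Dtx3l overlap at their starts on opposite strands, over 9.4% of the exons of Parp9 and 8.0% of those of Dtx3l, so their reads were not fully separate.

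The median log2 difference was 4.12 over the 7 type I genes and 4.91 over the 9 GTPases, a gap of -0.79, or -0.78 without Oasl1. In each library the type I mean of log2(FPKM + 1) minus the GTPase mean was -0.66, -0.54 and -0.92 in untreated tumors, against -0.005, 0.39 and 0.05 in healthy brain. The GTPase mean was thus above the type I mean in all 3 untreated tumors, and near or below it in brain. The members were chosen with earlier results known, so these gaps are descriptions with no test. With 1 of the 6 libraries left out, the gap of the medians ran from -1.10 to -0.71.

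**Figure D4:**
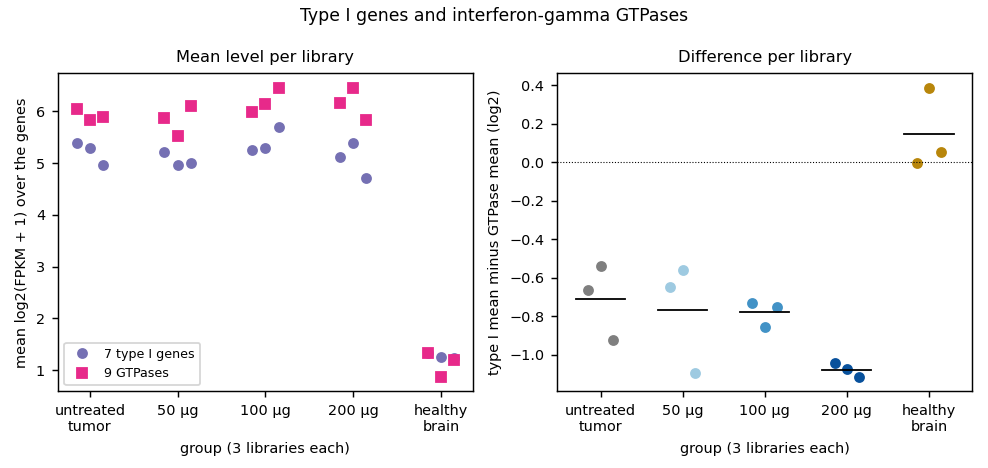
Left, mean log2(FPKM + 1) of the 7 type I genes (circles) and the 9 GTPases (squares) in each library. Right, the type I mean minus the GTPase mean in each library, with the group mean as a line. The 3 libraries at 200 µg lie at -1.043 to -1.115, below all libraries at 100 µg and all untreated libraries, and replicate 3 at 50 µg lies among them at -1.095.

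Within the tumors, 1 of the 43 genes, Oasl1, was called over antibody dose, and 0 at any single dose. In a limma fit of the 12 tumor libraries, with adjustment over 14442 genes, 0 of 43 were called at 50 µg against untreated, where 0.0% of all genes were called. At an unadjusted p under 0.05 there were 3 (Irf9, Gbp5 and Trim25), and 4.01% of all genes passed that level. At 100 µg 0 of 43 were called, with 0.0831% of all genes called (0.0692% higher and 0.0138% lower). The unadjusted count was 5 (Gbp2, Igtp, Stat2, Usp18 and Lgals3bp), with 9.07% of all genes. At 200 µg 0 of 43 were called, against 2.99% of all genes (2.13% higher and 0.866% lower), and 4 passed unadjusted (Oasl1, Lgals3bp, Ifi44 and Mx1), against 23.3%. In the linear trend over dose 1 of 43 was called, against 7.89% of all genes (5.28% higher), and 5 passed unadjusted, against 26.8%. These comparisons share the untreated libraries.

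The 95% intervals show how closely each difference was estimated. At 200 µg the interval of 31 of the 43 genes lay within 1 log2 unit of 0, and its median width was 1.17. At 50 µg this held for 34 genes and at 100 µg for 31. These intervals hold the differences that 3 libraries a group leave possible for each gene, before any adjustment over genes. They are not a limit of detection. The spread among the 12 tumor libraries is given beside that of all tested genes, which were not matched to the set for level. The highest library exceeded the lowest by a median of 2.43-fold over the set, leaving out Ifi35, which has a library at 0. The median was 2.5-fold over the 12651 tested genes with no 0. The median coefficient of variation was 26.1% over the set, against 29.3% over all tested genes.

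**Figure D5:**
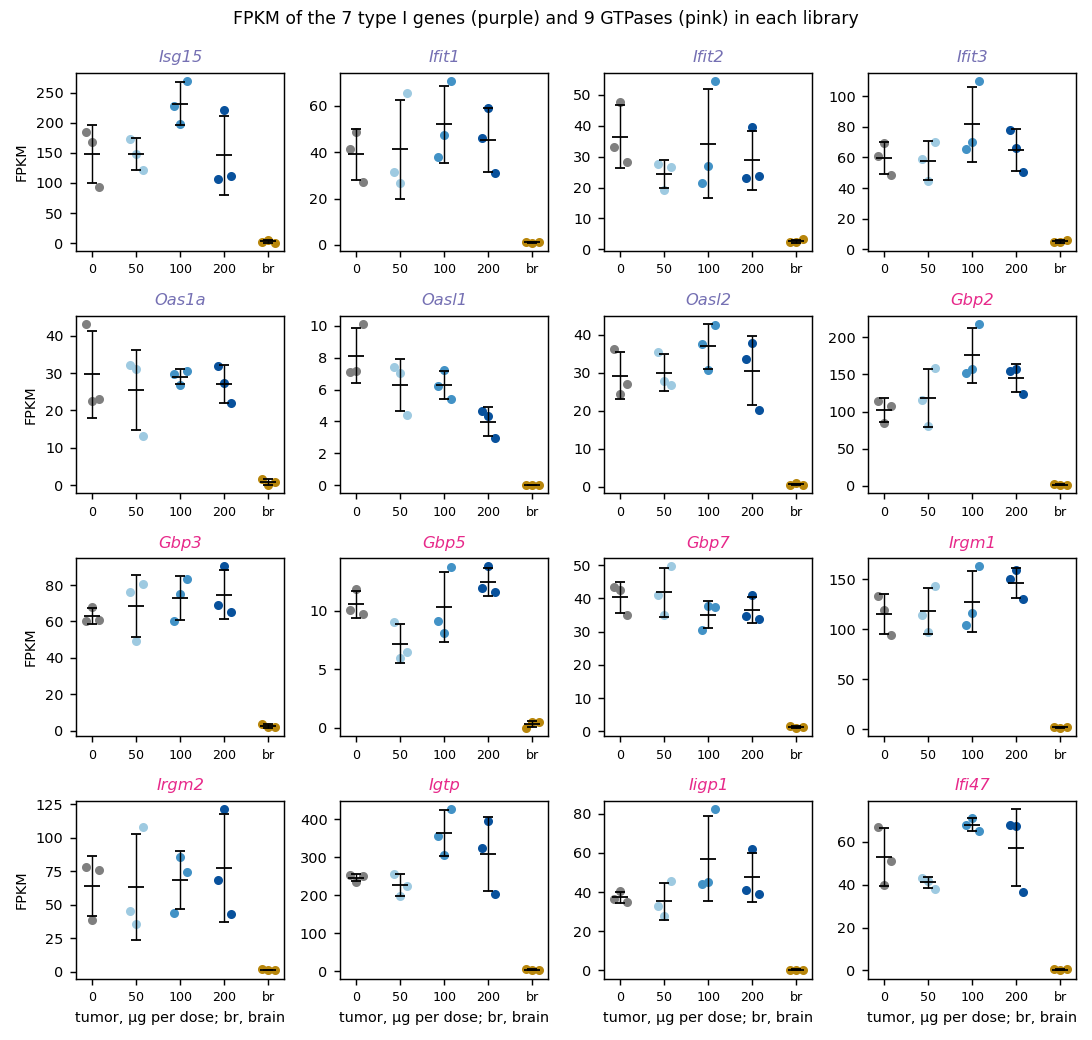
FPKM of the 7 type I genes (purple titles) and the 9 GTPases (pink titles) in every library, by µg of antibody per dose and in healthy brain (br). Points are libraries, and bars give the mean ± SD of 3. Oasl1 is lowest at 200 µg, where its 3 libraries lie at 2.96 to 4.68 FPKM and below the untreated libraries. In none of the 16 panels was a dose group called against untreated.

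Oasl1 was the gene called over dose. Its FPKM were 7.08, 7.18 and 10.1 without antibody, 7.39, 7.03 and 4.43 at 50 µg, 6.21, 7.201 and 5.41 with 100 µg and 4.68, 4.35 and 2.96 with 200 µg. All 3 libraries at 200 µg lay below all 3 untreated ones, the 50 and 100 µg libraries overlapped the untreated ones, and replicate 3 at 50 µg lay among those at 200 µg. The log2 slope per 100 µg was -0.41 ± 0.104 (SE), adjusted p = 0.0355, and the share of all genes called with a negative slope was 2.61%. The difference at 200 µg was -0.87 ± 0.227 (SE), adjusted p = 0.0649, which is not a call. The slope lost its call when any of 8 of the 12 libraries was left out (each of the untreated and 200 µg libraries, and replicates 1 and 2 at 50 µg), with an adjusted p of up to 0.104. It also lost it with the 4 libraries of few pieces as a term (-0.31, adjusted p = 0.532), by agent tag (-0.31, adjusted p = 0.0911), without the 4 libraries whose tag disagrees (-0.30, adjusted p = 0.0714) and with a plain FPKM sum (-0.39, adjusted p = 0.165). All untreated libraries lie outside the 4 libraries of few pieces and all 200 µg libraries among them, so dose and that difference cannot be told apart at 200 µg. Among the 8 libraries outside, which reach 100 µg, Oasl1 ran from 4.43 to 10.1 FPKM. The 300-base window at its start, chr5:114922990-114923289, plus strand, held neither motif.

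Grouping by the agent tag called other genes over dose. That fit moved replicate 3 of the untreated group to 50 µg. It also moved replicate 3 at 50 µg to 100 µg and replicate 3 at 100 µg to 200 µg. Replicate 3 at 200 µg, which has no tag, was left out. By that tag Ifi44 had a slope of 0.67 (adjusted p = 0.0177), Gbp2 of 0.46 (adjusted p = 0.0388) and Herc6 of 0.38 (adjusted p = 0.0469), 3 of 43 in all. Of all genes in that fit, 1009 of 14468 were called over dose, 577 of them higher. By title their slopes were 0.47 ± 0.164 (SE), adjusted p = 0.0915 for Ifi44, 0.28 ± 0.139 (SE), adjusted p = 0.228 for Gbp2 and 0.21 ± 0.131 (SE), adjusted p = 0.326 for Herc6, and none was called. Ifi44 and Herc6 are named here after their values were seen. Ifi44 had 7.27 to 12.9 FPKM in untreated tumors, 12.5, 8.18 and 14.3 with 50 µg, 12.2, 11.2 and 20.9 with 100 µg and 24.8, 24.6 and 10.3 with 200 µg. It was also called without replicate 3 at 200 µg (0.67, adjusted p = 0.0287) and without the 4 libraries whose tag disagrees (0.65, adjusted p = 0.0485). Every fit that called Ifi44 left out replicate 3 at 200 µg, its lowest library of that group, so these calls are not separate support. Lgals3bp had 127 to 163 FPKM in untreated tumors, 106, 133 and 64.9 with 50 µg, 66.2, 95.6 and 99.5 with 100 µg and 87.8, 78.2 and 86.8 with 200 µg, and its libraries at 100 and 200 µg all lay below the untreated ones. Its slope of -0.33 ± 0.131 (SE), adjusted p = 0.137 was called only without replicate 3 at 50 µg (-0.37, adjusted p = 0.0343).

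At 200 µg the log2 difference was positive for 3 of the 7 type I genes, beside 52.7% of all genes, with none called. Isg15 had 93.3 to 184 FPKM in untreated tumors, 173, 149 and 121 with 50 µg, 228, 198 and 269 with 100 µg and 106, 222 and 111 with 200 µg. All 3 libraries at 100 µg lay above the untreated ones, and those at 200 µg did not (0.69 ± 0.329 (SE), adjusted p = 0.591 at 100 µg). Ifit1 had 27.2 to 48.9 FPKM in untreated tumors, 31.3, 26.6 and 65.7 with 50 µg, 37.99, 47.4 and 70.6 with 100 µg and 46.01, 58.9 and 31.1 with 200 µg. Ifit2 had 28.3 to 47.9 FPKM in untreated tumors, 27.5, 19.2 and 26.6 with 50 µg, 21.4, 26.9 and 54.4 with 100 µg and 22.9, 39.7 and 23.8 with 200 µg. Ifit3 had 48.9 to 69.6 FPKM in untreated tumors, 59.1, 44.6 and 69.96 with 50 µg, 65.2, 70 and 109.7 with 100 µg and 77.6, 66.3 and 50.5 with 200 µg. For all 3 Ifit genes the highest library at 100 µg was replicate 3, and apart from Ifit2 at 50 µg, whose libraries all lay below the untreated ones, the dose groups overlapped the untreated group. Oas1a had 22.6 to 43.1 FPKM in untreated tumors, 32.3, 31.03 and 13.2 with 50 µg, 29.6, 26.8 and 30.7 with 100 µg and 31.9, 27.3 and 21.9 with 200 µg. Oasl2 had 24.4 to 36.2 FPKM in untreated tumors, 35.6, 27.8 and 26.8 with 50 µg, 37.7, 30.8 and 42.5 with 100 µg and 33.6, 37.8 and 20.4 with 200 µg. Both overlapped the untreated group at every dose. The median log2 difference of the 7 genes was -0.06 at 50 µg, 0.34 at 100 µg and -0.05 at 200 µg, against -0.07, -0.01 and 0.03 over all genes. At 50 µg it was -0.36 by agent tag. At 100 µg it was 0.002 by agent tag and -0.08 without the 4 libraries whose tag disagrees. At 200 µg it was -0.519 with the 4 libraries of few pieces as a term. With 1 library left out it ran from -0.235 to 0.051 at 50 µg, 0.155 to 0.439 at 100 µg and -0.219 to 0.134 at 200 µg.

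Among the GTPases the log2 difference at 200 µg was positive for 8 of 9, beside 52.7% of all genes, with none called. Gbp2 had 84.5 to 115 FPKM in untreated tumors, 115, 81.1 and 159 with 50 µg, 152, 157 and 218 with 100 µg and 155, 158 and 123 with 200 µg. Its libraries at 100 and 200 µg all lay above the untreated ones, with differences of 0.77 ± 0.256 (SE), adjusted p = 0.368 at 100 µg and 0.51 ± 0.256 (SE), adjusted p = 0.259 at 200 µg. Igtp had 236 to 253 FPKM in untreated tumors, 256.4, 198 and 226 with 50 µg, 356, 306 and 427 with 100 µg and 324, 397 and 204 with 200 µg. Its libraries stood above the untreated ones at 100 µg and straddled them at 200 µg. Gbp3 had 60.3 to 67.8 FPKM in untreated tumors, 76.2, 49.1 and 80.6 with 50 µg, 59.99, 75.2 and 83.4 with 100 µg and 68.8, 90.2 and 65.04 with 200 µg. Gbp5 had 9.77 to 11.8 FPKM in untreated tumors, 9.07, 5.94 and 6.52 with 50 µg, 9.16, 8.13 and 13.7 with 100 µg and 11.9, 13.8 and 11.6 with 200 µg. Gbp7 had 34.98 to 43.4 FPKM in untreated tumors, 41.1, 34.9 and 49.6 with 50 µg, 30.4, 37.6 and 37.3 with 100 µg and 34.8, 41 and 33.9 with 200 µg. Gbp5 stood below the untreated libraries at 50 µg alone, Gbp3 and Gbp7 overlapped them at each dose, and Gbp7 was the GTPase whose mean was lower at 200 µg. Irgm1 had 93.8 to 133 FPKM in untreated tumors, 114, 97.4 and 143 with 50 µg, 104, 116 and 163 with 100 µg and 149.7, 159 and 129.9 with 200 µg. Irgm2 had 38.6 to 77.9 FPKM in untreated tumors, 45.6, 35.5 and 108 with 50 µg, 44.1, 85.9 and 74.5 with 100 µg and 68.1, 121 and 43.1 with 200 µg. Iigp1 had 35.2 to 40.5 FPKM in untreated tumors, 32.7, 27.6 and 45.5 with 50 µg, 43.9, 45.2 and 82.4 with 100 µg and 41.1, 62.2 and 39.2 with 200 µg. The Iigp1 libraries at 100 µg lay above the untreated ones, and those of Irgm1 and Irgm2 overlapped them at each dose. Ifi47 had 40.05 to 67 FPKM in untreated tumors, 43.4, 41.7 and 38.2 with 50 µg, 67.7, 71.2 and 65.3 with 100 µg and 67.8, 67.7 and 36.6 with 200 µg, with overlap at each dose. The median log2 difference of the 9 was -0.11 at 50 µg, 0.20 at 100 µg and 0.23 at 200 µg, against -0.07, -0.01 and 0.03 over all genes. Their median slope was 0.18 per 100 µg, against 0.03 over all genes. With the 4 libraries of few pieces as a term, the sign of the GTPase median turned at 200 µg (-0.103) and over dose (-0.034). Without replicate 2 at 50 µg it turned at 50 µg (0.159).

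The type I mean minus the GTPase mean was -0.66, -0.54 and -0.92 in the untreated libraries, -0.65, -0.56 and -1.095 in the 50 µg libraries, -0.73, -0.86 and -0.75 in the 100 µg libraries and -1.043, -1.075 and -1.115 in the 200 µg libraries. At 200 µg all 3 libraries lay below every untreated library, and no test was made of this gap. The 4 libraries of few pieces hold all of the 200 µg group, and replicate 3 at 100 µg, which belongs to them, had -0.75. The gap between the subset medians at 200 µg against untreated was -0.28, and ran from -0.43 to -0.15 with 1 library left out. Replicate 3 at 100 µg also held the highest level among tumors for 20 of the 43 genes (46.5%, against 12.2% of all genes), including 5 type I genes and 4 GTPases. Replicate 2 at 50 µg and replicate 3 at 200 µg held the lowest for 11 each (25.6%, against 5.29 and 9.61% of all genes). Levels thus differed among libraries of 1 dose for many of these genes at once.

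The regulators were not called at any dose. Irf1 had 26.6 to 49.8 FPKM in untreated tumors, 41.7, 32.9 and 76.5 with 50 µg, 52.5, 40.8 and 76.2 with 100 µg and 48.1, 60.98 and 35.2 with 200 µg. Irf7 had 27.8 to 28.8 FPKM in untreated tumors, 25.2, 23.3 and 14.8 with 50 µg, 21.4, 34.2 and 32.7 with 100 µg and 19.8, 25.8 and 13.7 with 200 µg, and all 3 libraries at 50 µg and at 200 µg lay below the untreated ones (-0.54 ± 0.273 (SE), adjusted p = 0.257 at 200 µg). Irf9 had 9.09 to 10.1 FPKM in untreated tumors, 11.7, 17.5 and 13.04 with 50 µg, 13.3, 12.7 and 11.03 with 100 µg and 9.53, 13.7 and 14.2 with 200 µg, and lay above the untreated libraries at 50 and 100 µg. Stat2 had 25.7 to 30.5 FPKM in untreated tumors, 26.4, 29.6 and 31.8 with 50 µg, 42.1, 40.02 and 50.1 with 100 µg and 27.9, 42.8 and 20.97 with 200 µg, and lay above the untreated libraries at 100 µg alone (0.65 ± 0.232 (SE), adjusted p = 0.421). Irf1 overlapped them at each dose. Among the 23 sensors, other effectors and enzymes none was called at any dose. Their log2 differences ran from -0.82 for Trim25 to 0.35 for Bst2 at 50 µg. At 100 µg they ran from -1.79 for Ifi35, with its library at 0, to 0.69 for Usp18, and at 200 µg from -0.73 for Lgals3bp to 0.96 for Ifi44. Counting groups that did not overlap with untreated, 1 gene lay above and 4 below at 50 µg, against 3.55 and 5.98% of all genes. At 100 µg 8 lay above and 1 below, against 7.52 and 7.12%. At 200 µg 1 lay above and 4 below, against 21.9 and 17.3% of all genes.

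The ligands themselves were hardly detected. Of 20 interferon genes looked up, 18 were listed at 0 in all 15 libraries, among them Ifnb1 and the alpha genes. Ifng was listed at 1.01 and 1.13 FPKM in replicates 1 and 2 at 100 µg, at 0.808 and 1.09 in replicates 1 and 2 at 200 µg, and at 0 in the other 11 libraries, all untreated and 50 µg tumors included. It did not reach the filter and was not tested. Ifnz was listed at 0.648 FPKM in 1 library at 100 µg. An interferon transcript below what assembly can recover would also be listed at 0. The 100 and 200 µg libraries were deeper, at 23.3 to 34.1 M fragments, against 18.5 to 22.1 M in the untreated and 50 µg tumors.

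Of 18 receptors and signaling proteins looked up, 17 were tested, and 11 were called higher and 3 lower in untreated tumor, against 32.8% higher and 28.4% lower of all genes, with a median log2 difference of 0.97. The inhibitors Socs3 and Socs1 had the largest differences, at 4.38 ± 0.225 and 3.64 ± 0.299 (SE). Ifngr2, a chain of the interferon gamma receptor, was lower, along with Pias1 and Ptpn11. Over dose Ptpn6, a phosphatase of immune cells, was called lower, with 9.87, 9.52 and 6.24 FPKM at 200 µg, against 13.96, 12.8 and 15.03 in untreated tumors (slope -0.33 ± 0.09 (SE) per 100 µg, adjusted p = 0.0455). Of the 17 tested, 1 was called lower over dose and 0 higher, beside 2.61 and 5.28% of all genes.

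Of 20 genes for sensing nucleic acid and inducing interferon, 15 were tested against brain, and 12 were called higher and 1 lower, against the same shares of all genes, with a median of 1.60. Dhx58, a relative of RIG-I, led with 3.97 ± 0.17 (SE), followed by the adaptors Myd88 (2.48 ± 0.378) and Tmem173 (2.47 ± 0.148), which is STING. The DNA sensor Aim2 had 7.66, 6.79 and 6.37 FPKM in untreated tumors, 4.51, 6.396 and 8.99 with 50 µg, 10.3, 8.91 and 8.81 with 100 µg and 12.99, 13.1 and 14.8 with 200 µg. Its difference of 0.88 ± 0.205 (SE) at 200 µg was called higher (adjusted p = 0.0478), as was its slope over dose (0.49 ± 0.102 per 100 µg, adjusted p = 0.017). Tmem173 had 10.7, 9 and 9.66 FPKM in untreated tumors, 9.38, 9.66 and 8.69 with 50 µg, 15.2, 20.2 and 14.1 with 100 µg and 18.4, 19.9 and 12.9 with 200 µg (slope 0.43 ± 0.114, adjusted p = 0.0408). For Tmem173 the libraries at 100 and 200 µg all lay above the untreated and 50 µg libraries. Of the 16 genes of this list tested in tumors, 1 was called higher at 200 µg, beside 2.13% of all genes. Over dose 2 of the 16 were called higher, beside 5.28% of all genes.

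Of 55 further interferon-stimulated genes, 52 were tested against brain, and 49 were called higher and 0 lower, against 32.8 and 28.4% of all genes, with a median of 2.96. The leading genes were Apol9b, a close relative of Apol9a with which it may share reads (5.81 ± 0.231 (SE)), the peptide transporter Tap1 (5.12 ± 0.14) and the chemokine Cxcl10 (5.06 ± 0.269). Over dose 2 of 52 were called, both lower, near the 2.61% of all genes called lower. At 200 µg 1 of 52 was called lower and 0 higher, beside 0.866 and 2.13% of all genes. Nmi, a binding partner of Ifi35, had 34.5, 31.8 and 35.8 FPKM in untreated tumors, 34.3, 22.6 and 43.9 with 50 µg, 19.2, 17.6 and 19.8 with 100 µg and 14.7, 15.7 and 20.7 with 200 µg. Its difference of -0.97 ± 0.227 (SE) at 200 µg was called (adjusted p = 0.0482), as was its slope over dose (-0.54 ± 0.121 per 100 µg, adjusted p = 0.0238). Apol9b had 76.8, 71.5 and 65.2 FPKM in untreated tumors, 66.3, 68.8 and 45.2 with 50 µg, 39.98, 42.5 and 26.2 with 100 µg and 20.8, 41.01 and 38.1 with 200 µg (slope -0.59 ± 0.143, adjusted p = 0.0301). Of 8 further GTPases tested against brain 7 were called higher and 0 lower, against 32.8 and 28.4% of all genes. They were led by Gbp6 (5.06 ± 0.287) and the near-identical Tgtp2 and Tgtp1. In the comparisons of tumors 0 of 11 were called. Of all genes, 0.0% were called at 50 µg, 0.0831% at 100 µg, 2.99% at 200 µg and 7.89% over dose.

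These pathway calls depended on single libraries and on the grouping too. Leaving out 1 of the 12 tumor libraries, the slope kept its call in 10 fits for Aim2, 9 for Nmi, 7 for Apol9b, 5 for Tmem173 and 2 for Ptpn6, and the call at 200 µg was kept in 3 fits each for Aim2 and Nmi. The fits without 200 µg replicate 1 lost all 5 slopes. By agent tag the slope of Apol9b kept its call (adjusted p = 0.0107), and those of Aim2 (0.0622), Tmem173 (0.0693), Nmi (0.0709) and Ptpn6 (0.091) lost it. Without the 4 libraries whose tag disagrees, Nmi (adjusted p = 0.0351) and Apol9b (0.0358) kept theirs, and Tmem173 (0.0563), Aim2 (0.0781) and Ptpn6 (0.115) did not. With a plain FPKM sum, Nmi (adjusted p = 0.0416) and Aim2 (0.0424) kept theirs, and Apol9b (0.0812), Tmem173 (0.109) and Ptpn6 (0.111) did not. The call at 200 µg was lost for both Aim2 and Nmi by agent tag (adjusted p = 0.142 for Aim2 and 0.179 for Nmi) and with a plain sum (0.103 and 0.0781 in that order), and without the 4 libraries for Aim2 alone (0.0633, with 0.045 for Nmi). With the 4 libraries of few pieces as a term, 0 of 14442 genes were called over dose, and the slopes were 0.45 for Aim2, -0.58 for Nmi, -0.36 for Apol9b, 0.53 for Tmem173 and -0.21 for Ptpn6.

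Marker sums of cells that could carry these genes are given by group, and their part in the results was not tested. Those of macrophages and monocytes, T cells and natural killer cells overlapped the untreated range at each dose. The 4 astrocyte markers summed to 3.69 to 8.36 FPKM in tumors, against 122 to 168 FPKM in brain. All 4 were called lower in untreated tumor, beside 28.4% of all genes, and the 1 tested in tumors was not called. Of 2 conventional dendritic markers tested in tumors, 1 was called lower at 200 µg and 1 over dose, beside 0.866 and 2.61% of all genes. The 10 macrophage and monocyte markers summed to 92.6 to 249 FPKM without antibody, 118 to 238 at 50 µg, 103 to 180.0 at 100 µg, 212 to 278 at 200 µg and 32.2 to 45.7 in brain. Against brain 6 of 9 tested were called higher in untreated tumor (32.8% of all genes). In any comparison of tumors 0 of 10 were called, where 0.0 to 7.89% of all genes were called. The 5 microglia markers summed to 73.6 to 178 FPKM without antibody, 93.2 to 167 at 50 µg, 23.8 to 45.3 at 100 µg, 27.0 to 32.8 at 200 µg and 56.4 to 61 in brain. Against brain 4 of the 5 were called lower in untreated tumor and 1 higher, beside 28.4% lower and 32.8% higher of all genes. Tmem119 made up most of the sum in each untreated library. Tmem119, 1 of these 5 markers, had 51.2, 91.02 and 157 FPKM without antibody, 144, 118 and 61.6 at 50 µg, 7.997, 4.83 and 17.8 with 100 µg, 3.95, 4.33 and 7.42 with 200 µg and 13.2, 12.2 and 8.17 in brain. Its untreated libraries lay above brain, while 4 of the 5 markers were called lower in untreated tumor. How its level relates to the number of microglia was not tested. Tmem119 was thus lower in all libraries at 100 and 200 µg than in every untreated one. Of the 3 microglia markers tested, 1 was called lower at 200 µg, beside 0.866% of all genes. The 7 T cell markers summed to 3.85 to 8.88 FPKM without antibody, 2.99 to 6.71 with 50 µg, 3.11 to 6.75 with 100 µg, 2.61 to 7.27 with 200 µg and 17.6 to 37.4 in brain, where 4 of them were at 0. Of those tested, 1 of 3 was called lower in untreated tumor than in brain (28.4% of all genes), and 1 of 2 was called higher over dose (5.28% of all genes). Cd3e, which defines T cells, was at most 0.36 FPKM without antibody, 0 at 50 µg, 0.262 at 100 µg, 0.224 at 200 µg and 0 in brain. The natural killer and cytotoxic markers summed to 9.19 to 24.1 FPKM without antibody, 12.5 to 34.4 at 50 µg, 12.3 to 26.0 at 100 µg, 4.26 to 30.7 at 200 µg and 0 in brain, where all 6 were at 0. The 3 tested against brain passed the filter through the tumor libraries alone, and all 3 were called higher (32.8% of all genes). In comparisons of tumors 0 of 4 were called, where 0.0 to 7.89% of all genes were called.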

How the data were processed

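RNA-seq libraries were sequenced from 12 GL261 tumor samples and 3 healthy brain samples. Per the submitters' processing notes, STAR, Cufflinks and mm10 were used, and their versions are not given in the sources used here. Each deposited file holds the transcripts assembled from 1 library, with FPKM values made by the authors and other attributes such as confidence limits. Gene values were computed on GENCODE M21 exons with bedtools 2.31.1 by weighting each transcript's FPKM by how much of the gene's exons it covered and adding these up, with single-exon transcripts under 200 bases set aside and strand ignored. Depth is not stated and was estimated from the confidence limits of transcripts with 16 to 256 fragments.

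Values were tested as log2(FPKM + 1) in limma 3.58.1 (R 4.3.3), over genes with a mean of at least 1 FPKM in the fit, two-sided, with Benjamini-Hochberg adjustment over all genes and a call at 0.05. One fit held 6 untreated and brain libraries and another the 12 tumors, with dose also as a number. The fits were tested on simulated data. Near-identical copies (95% identity over 30% of length) were sought with blastn 2.17.0. A gene was joined to a neighbor where transcripts giving at least 0.5 of its value covered 20% of the other gene, and in pieces where separate transcripts each covered 20% of it.

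Members and lists were chosen with earlier results of these data known. Every library value is given for type I genes, GTPases and regulators and up to 3 examples for other roles by mean level. Of pathway lists, genes called among tumors, the 3 largest differences from brain, and Ifng and Ifnb1 are named, and 1 further gene of that rule is not reported here. Alternatives varied the quantification, pseudocount, filter, scaling, limma options, replicate block, a term for the 4 libraries of few pieces, the agent tag and each library. The labels state no pairing by replicate number, and the main fits used none. Protein motifs of the GTPases are not analysed here.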

Additional observations from a re-analysis of the deposited data

How the results depend on the processing

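Against brain, 42 of 43 genes were called in each fit that left out 1 library and 38 to 42 under the other alternatives. The counts of 38 (of 39 tested, filter at 5 FPKM) and 39 (of 40, leaving out genes joined to a neighbor) come from fewer genes tested. Ifih1 lost its call under a plain FPKM sum (2.36, adjusted p = 0.0615). No called gene changed sign under any alternative run. At 50 and 100 µg the count was 0 throughout. At 200 µg it was 1 (Oasl1) under quantile scaling and 0 to 1 with 1 library left out. Over dose it was 0 under a plain sum, 0 with the 4 libraries of few pieces as a term, 3 by agent tag, and 0 to 2 with 1 library left out. By agent tag, 1009 of all 14468 genes tested were called over dose. The causes were not tested.

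The type I minus GTPase gap against brain ran from -1.104 to -0.71 with 1 library left out. At 50 µg it ran from -0.135 to 0.055, and was -0.168 by agent tag. At 100 µg it ran from -0.093 to 0.248, and was -0.155 by agent tag and -0.243 without the 4 libraries whose tag disagrees. Without those 4 it was -0.46 at 200 µg and -0.319 over dose.

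Over all genes, the alternatives called 6088 to 10825 against brain (9836 in the main analysis), 0 to 8 at 50 µg (0), 0 to 45 at 100 µg (12), 24 to 1223 at 200 µg (432) and 0 to 2039 over dose (1140). Same-numbered samples deviated together at r of -0.079 to 0.1 over 18 tumor pairs and -0.019 to 0.011 over 3 brain pairs. For samples of different numbers r was -0.205 to 0.194 over 36 tumor pairs and -0.036 to 0.026 over 6 brain pairs. These values cannot show whether samples were handled in pairs. With the replicate block, 42 genes were called against brain, 0 at each dose and 1 over dose, as without it, while over all genes 0 were called at 100 µg, 245 at 200 µg and 919 over dose. Depth of 16.04 to 56.8 M fragments and assembly of each library apart limit what a value of 0 means.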
